A study of Bos taurus with 33 samples.

Results

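The genes described here encode the mitochondrial ribosomal proteins. They were chosen by name, as every gene whose symbol begins with MRPL or MRPS followed by a digit in the table of oocyte pools or in the table of cumulus cell (CC) pools, joined by Ensembl identifier. This gave 79 genes of the 17543 listed in either table, 50 with MRPL names and 29 with MRPS names. The 79 genes carry 78 symbols, because MRPL33 is listed under 2 identifiers. They were divided into 52 of the large and 27 of the small subunit. MRPS30 and MRPS18A were counted with the large subunit, where their proteins sit despite the names. MRPS36 was counted with the small subunit by its name alone, since its protein is now known as a component of the oxoglutarate dehydrogenase complex and not of the ribosome.

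The mitochondrial ribosome (mitoribosome) sits in the mitochondrial matrix and translates the few mRNAs that the mitochondrial genome encodes, all of them for subunits of the respiratory chain complexes and ATP synthase. Its ribosomal RNAs are made in the mitochondrion, whereas every one of its proteins is encoded in the nucleus, translated in the cytosol and imported. Some of these proteins descend from bacterial ribosomal proteins (47 of the genes here) and the others were gained in the mitochondrial line (32 of them). The oocyte passes its mitochondria and their translation machinery to the embryo, and the CC are the somatic cells that surround it in the follicle and exchange metabolites with it.

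RNA was sequenced from pools of 4 oocytes, or of the CC of 4 cumulus-oocyte complexes, aspirated from the largest follicle of suckled postpartum Hereford-Angus crossbred beef cows. All cows received GnRH on day -9 and prostaglandin F2α on day -2. In the small class (follicle up to 11.7 mm on day 0) and the large class (from 12.7 mm) the cows had not shown estrus, and a second GnRH injection on day 0 induced the gonadotropin surge. In the spontaneous class (11.7 to 14.0 mm) the cows had shown estrus with an endogenous surge and got no second injection, so that follicle size and the origin of the surge both differ between spontaneous and other pools and cannot be told apart. Collection was at about 20 h after GnRH or estrus by one label and about 23 h by another. There were 6 small, 6 large and 4 spontaneous oocyte pools, and 6, 6 and 5 CC pools. Each pool mixes complexes of several cows, and because the RNA was amplified from a few cells the spread between pools may be partly technical.

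The values are reads on a gene scaled to a total of 1000000 reads on genes per pool (CPM). Reads on genes numbered 7664375 to 17934916 per oocyte pool and 1911600 to 5772431 per CC pool. At these depths a count of 0 allows a level of 0.167 to 0.391 CPM in oocyte pools and of 0.520 to 1.57 CPM in CC pools (3 reads, counting error only). Of the 12 oocyte markers all 12 were retained in oocyte pools (summed level 9185 to 13622 CPM) and none of the 7 listed in the CC table in CC pools (1.71 to 13.7 CPM). Of the 14 cumulus and granulosa cell markers 13 were retained in CC pools, at 5446 to 14161 CPM, but 9 were also retained in oocyte pools, at 542 to 1409 CPM.

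A transcript was retained for testing when its level was 5 CPM or more in 4 or more of the oocyte pools, or in 5 or more of the CC pools. Of the 79 genes 72 were retained in oocytes and 77 in CC. The 5 retained only in CC were MRPL23, MRPL28, MRPL40, MRPL57 and MRPS34. Both entries of MRPL33, a large-subunit protein of bacterial type, were retained in neither cell type. The first (ENSBTAG00000032831) ranged from 0.0664 to 0.913 CPM in oocytes and from 0 to 1.76 CPM in CC. The second (ENSBTAG00000035199) ranged from 0.185 to 17.5 CPM in oocytes and from 0.586 to 4.27 CPM in CC. Whether the 2 entries are near-identical copies, between which reads may be split or lost, was not checked. The level of MRPL33 is therefore uncertain. Across all members 68 had a read in every oocyte pool and 78 in every CC pool.

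The first question was how the 2 cell types use these genes. Several mitoribosomal protein transcripts stood far higher in oocytes, others far higher in CC, and the middle of the group was alike. The tables were scaled separately, so the levels are set side by side without a test, and a ratio between them depends on that scaling. For 13 members every oocyte pool lay above every CC pool, and for 6 members every CC pool lay above every oocyte pool. Over all 14980 genes listed in both tables these shares were 17.5% and 10.6%. Among the 72 members retained in both the counts were 13 and 3, beside 22.5% and 12.7% of the 8083 genes retained in both. The members' counts lay near or below these background shares. The median difference of mean log2(CPM + 1), oocyte minus CC, was -0.07 over the 79 members. Over the 72 members retained in both it was 0.006, beside 0.13 over the 8083 genes retained in both.

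MRPS31, a small-subunit protein without a bacterial counterpart, had the largest difference toward the oocyte. It ranged from 138 to 225 CPM in oocyte pools (median 179) and from 8.57 to 29.5 CPM in CC pools (median 18.2), a ratio of means of 9.74. MRPL32, a bacterial-type protein whose maturation by a protease of the inner membrane precedes ribosome assembly, ranged from 69.9 to 178 CPM in oocytes (median 108) and from 6.05 to 21.7 CPM in CC (median 13.7). MRPL37, a mitochondria-specific protein of the large subunit, ranged from 140 to 534 CPM in oocytes (median 191) and from 16.3 to 36.1 CPM in CC (median 27.7). For each of these 3 the lowest oocyte pool was above the highest CC pool.

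In the other direction MRPS34, a mitochondria-specific small-subunit protein, had the largest difference. It ranged from 0 to 4.12 CPM in oocytes (median 0.520), with 4 of 16 pools at 0, and from 8.37 to 31.8 CPM in CC (median 15.1). MRPL23, which lines the exit of the peptide tunnel, ranged from 0 to 8.09 CPM in oocytes (median 0.870) and from 8.37 to 31.5 CPM in CC (median 19.1). MRPL17, a large-subunit protein of bacterial type, ranged from 0 to 20.7 CPM in oocytes (median 3.95) and from 22.1 to 63.2 CPM in CC (median 37.7). The lowest CC pool was above the highest oocyte pool for all 3, though for MRPL17 the gap was narrow.

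**Figure D1:**
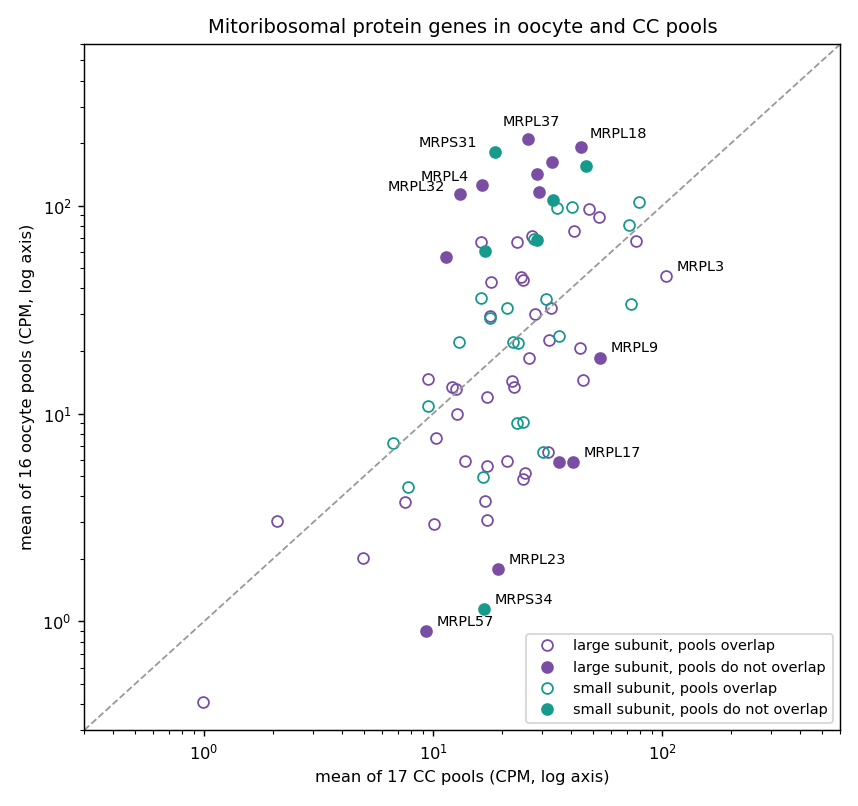
Mean level of each of the 79 mitoribosomal protein genes in 17 CC pools (x axis, CPM, log scale) and in 16 oocyte pools (y axis, CPM, log scale), with large- and small-subunit genes in different colours and filled points where the pools of the cell types do not overlap. The dashed line marks equal levels in the separately scaled tables, and the points spread over a wider range along the oocyte axis (0.409 to 210 CPM) than along the CC axis (0.985 to 104 CPM).

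Proteins that neighbour each other in the ribosome did not always share a side (the members of these neighbourhoods were chosen after their values were seen). Around the peptide tunnel MRPL4 was at 126 ± 47.5 CPM in oocytes and 16.3 ± 7.50 CPM in CC (SD, n = 16 and 17), and MRPL22 was at 42.9 ± 16.1 and 17.9 ± 4.80 CPM. MRPL24 was at 4.83 ± 4.34 CPM in oocytes and 24.8 ± 6.41 CPM in CC, and MRPL45, which helps to tether the ribosome to the inner membrane, at 14.5 ± 8.63 and 44.9 ± 13.3 CPM. So MRPL4 and MRPL22 had the higher mean in oocytes, and MRPL23, MRPL24 and MRPL45 in CC. In the stalk that recruits translation factors MRPL10, MRPL11 and MRPL12 all had the higher mean in CC, from 1.27 times for MRPL12 to 4.87 times for MRPL11, with overlapping pools. In the central protuberance MRPL38 and MRPL52 had the higher mean in oocytes, and MRPL40, MRPL46, MRPL48 and MRPL58 in CC, again with overlap. MRPL58 is a peptidyl-tRNA hydrolase built into the large subunit. In the small subunit MRPS27, an RNA-binding protein of the pentatricopeptide repeat type, was at 107 ± 23.8 CPM in oocytes and 33.4 ± 6.54 CPM in CC without overlap, and MRPS12, a protein of the decoding centre, at 9.11 ± 11.5 and 24.7 ± 5.88 CPM with overlap.

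By subunit 20 of 52 large-subunit genes and 16 of 27 small-subunit genes had the higher mean log2 level in oocytes. The pools did not overlap for 8 large-subunit genes higher in oocytes and 5 higher in CC, and for 5 and 1 small-subunit genes. Over all genes listed in both tables these shares were 17.5% and 10.6%. Of those higher in CC, MRPL23 and MRPL57 of the large subunit and MRPS34 of the small subunit were retained only in CC. The difference between the subunits was not tested. Bacterial-type genes were split 22 to 25 and mitochondria-specific genes 14 to 18 between higher in oocytes and higher in CC.

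The levels of the members were far less even in oocytes than in CC. Over the 72 members retained in both cell types the SD of the log2 mean level was 1.70 in oocytes and 0.835 in CC. The part of transcript length in these SDs was not tested. Over the 8083 genes retained in both the SDs were 1.99 and 1.83, and the difference between the members and these genes was not tested. In oocytes 11 members had a mean of at least 100 CPM and 26 a mean under 10 CPM, while in CC 1 member (MRPL3, 104 CPM) was above the first value and 9 were below the second, without correction for length. The 10 highest members held 42.8% of the summed level in oocytes and 30.4% in CC. Pools of 1 class also differed more from each other in oocytes, with a median SD of log2(CPM + 1) of 0.70 over the retained members, against 0.41 in CC. For all genes retained in both these values were 0.61 and 0.45.

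Mitochondrially encoded mRNAs, the templates that the mitoribosome reads, took 0.846 to 5.0% of the reads in oocyte pools and 12.6 to 44.0% in CC pools. CPM are shares of the reads in a pool, so these reads lower every other CPM in CC pools. When the 13 mitochondrially encoded genes were left out of both tables, the members without overlap were 9 with oocytes higher and 8 with CC higher, beside 14.8% and 14.2% of all genes listed in both tables. With median-of-ratios scaling over both tables they were 10 and 9, beside 14.6% and 14.6% of all genes. Those scalings moved the median difference over all genes retained in both from 0.13 to -0.17 and -0.24, and that over the 79 members from -0.07 to -0.38 and -0.45. These medians cover unlike sets, since the 79 members include those retained only in CC or in neither table. With CPM as deposited the median over the 72 members retained in both was 0.006. The 6 members with the largest differences named above stayed on their side without overlap under each scaling, and the SDs over the members stayed at 1.70 and 0.83.

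The next question, the one the study was designed for, was whether transcripts differ between small, large and spontaneous classes within a cell type. Retained transcripts were tested on log2(CPM + 1) with limma, which fits each transcript and moderates its variance by that of the others. A transcript passed at a nominal p up to 0.01. In both comparisons with small oocyte pools it had to pass with and without small replicate 3. Each class enters 2 comparisons, so comparisons with a common class share its pools. No member had a Benjamini-Hochberg adjusted p under 0.05 in any of the 6 comparisons. In bulk RNA fewer cells of a type and less RNA per cell cannot be told apart.

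Summed over the 79 genes, spontaneous oocyte pools had the most mitoribosomal protein mRNA. The 4 spontaneous pools were at 3795, 3844, 4222 and 3822 CPM. Small oocyte pools ranged from 3274 to 3677 CPM (median 3426) and large oocyte pools from 2953 to 3635 CPM (median 3330). All 4 spontaneous pools were above all small and all large pools, and small and large pools overlapped. The class means were 3921 ± 202 CPM for spontaneous (SD, n = 4), 3450 ± 163 for small (n = 6) and 3305 ± 250 for large (n = 6). The sum has no test, because its members were chosen with earlier results known.

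The order held without the mitochondrially encoded genes, where the lowest spontaneous pool was at 3831 and the highest other pool at 3743 CPM, and with median-of-ratios scaling, at 3620 and 3571. MRPL37 alone gave 119 of the 470 CPM between the spontaneous and small means and 110 of the 615 CPM between the spontaneous and large means. Without MRPL37, an alternative chosen after seeing the data, spontaneous pools ranged from 3310 to 3974 CPM and overlapped small pools (3075 to 3506 CPM) and large pools (2755 to 3447 CPM). Of the 79 members 54 had the higher mean in spontaneous than in small pools and 56 than in large pools. Both subunits took part. The large subunit summed to 2407 ± 125 CPM in the spontaneous class, 2151 ± 137 in the small and 2064 ± 202 in the large, and the small subunit to 1514 ± 109, 1300 ± 28.9 and 1241 ± 109 CPM. The small-subunit sum of every spontaneous pool (1393 to 1657 CPM) was above that of every small and large pool (1144 to 1389 CPM), but only just. MRPS36, counted with this subunit by name alone, was at 35.0 CPM in the lowest spontaneous pool and 29.5 CPM in the highest other pool. Without MRPS36, an alternative chosen after seeing the data, these pools change order and the separation is lost. The large-subunit sums overlapped, with the lowest spontaneous pool at 2298, the highest small pool at 2344 and the highest large pool at 2317 CPM.

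In the same oocyte pools the mitochondrially encoded mRNAs ran the other way. They took 0.846 to 1.18% of reads in spontaneous, 1.27 to 5.0% in small and 1.13 to 2.68% in large pools. Spontaneous oocyte pools were also sequenced more deeply, with 13182627 to 17934916 reads on genes against 7664375 to 14118707 in the others. The summed cumulus and granulosa cell markers were alike in the 3 classes, with medians of 943, 890 and 835 CPM in spontaneous, small and large oocyte pools. The part of depth in the order of the sums was not tested.

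**Figure D2:**
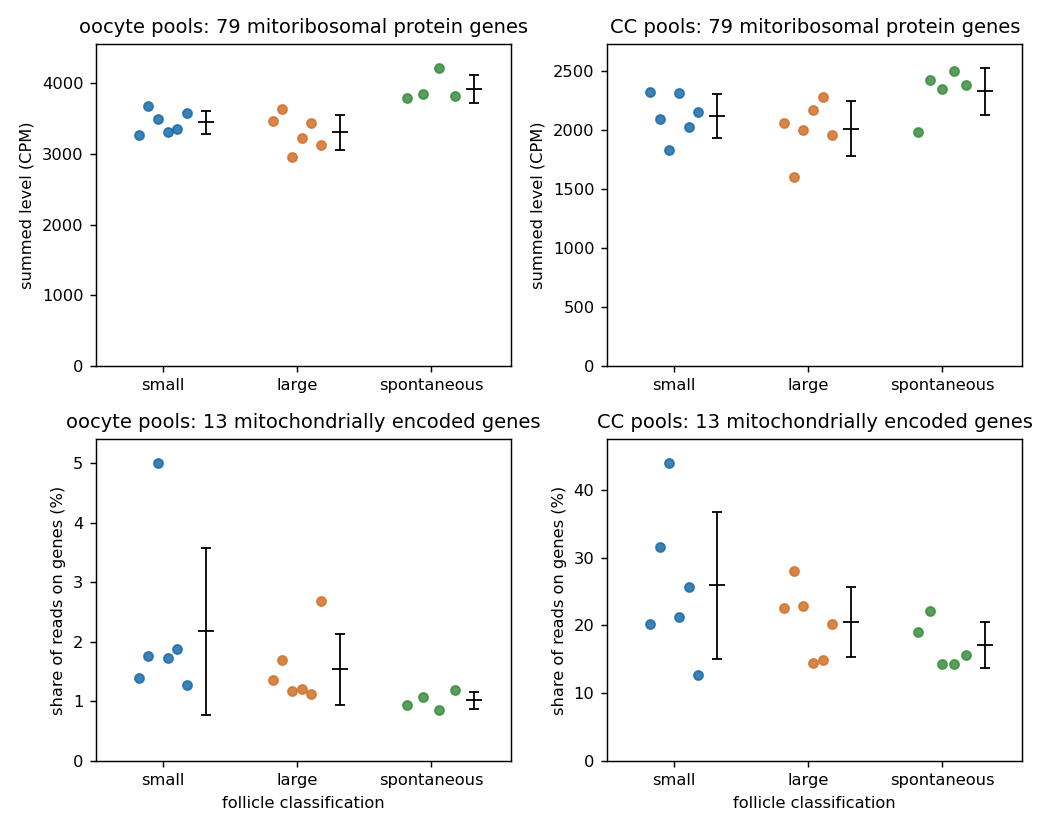
Level by pool in oocyte pools (left) and CC pools (right): upper plots, CPM summed over the 79 mitoribosomal protein genes, and lower plots, percent of reads on the 13 mitochondrially encoded genes. Each point is a pool and the bars give the mean and SD of each class; the 4 spontaneous oocyte pools (3795 to 4222 CPM) lie above all other oocyte pools, while the CC classes overlap.

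Between small and large oocyte pools the mitoribosomal genes did not move as a group. Of 72 members tested 36 had the higher mean in each class, and their median log2 fold change (large over small) was 0.01, beside 0.05 over all 10076 transcripts. One member passed the nominal threshold, where 0.655% of all transcripts did. It was MRPL48, a mitochondria-specific protein of the central protuberance. MRPL48 ranged from 0.172 to 3.41 CPM in small pools (median 1.27) and from 3.21 to 22.2 CPM in large pools (median 12.01), and was at 10.4, 10.7, 0.986 and 14.2 CPM in the spontaneous pools. The small pools were low, 5 of 6 large pools were above every small pool, and spontaneous replicate 3 was as low as the small pools. Its log2 fold change from small to large was 2.46 (SE 0.62, limma nominal p = 0.000427, adjusted p = 0.997, exact permutation p = 0.00433). MRPL48 was retained through the classes where it was high, with 5 CPM or more in 0 of 6 small, 5 of 6 large and 3 of 4 spontaneous pools, so its count as a member that passed supports nothing about the group. In CC its class means ranged from 9.0 to 11.6 CPM.

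With an unadjusted p under 0.05 there were 4 members, where 4.11% of all transcripts had one. Besides MRPL48 they were MRPL35, with the higher mean in large pools (9.35 ± 4.67 against 2.96 ± 2.59 CPM), and MRPL16 and MRPL39, with the lower mean there. MRPL16 was at 3.07 ± 2.33 CPM in large and 9.08 ± 5.28 CPM in small pools, and MRPL39 at 79.3 ± 26.6 and 115 ± 33.2 CPM. MRPL35 had 5 CPM or more in 2 of 6 small, 5 of 6 large and 1 of 4 spontaneous pools, and MRPL16 in 4, 1 and 2. Like MRPL48, both were retained through a class where they were high, so their place in this count supports nothing about the group. These members, and all others named below with a p between the thresholds, were singled out after their values were seen.

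More members had the higher mean in spontaneous than in small oocyte pools. Of 72 tested 49 had the higher mean log2 level in spontaneous pools (68.1%, beside 55.0% of all transcripts), and the median log2 fold change was 0.26, beside 0.05 over all transcripts. The medians were alike for the large (0.26) and the small subunit (0.28), and 21 of 26 small-subunit and 28 of 46 large-subunit genes had the higher mean in spontaneous pools. One member passed the nominal threshold, where 0.774% of all transcripts did. It was MRPL10, the bacterial-type protein that anchors the stalk. MRPL10 ranged from 0.730 to 20.3 CPM in small pools (median 4.47) and was at 23.3, 36.6, 9.79 and 38.1 CPM in spontaneous pools. Spontaneous pools were high except replicate 3, which fell within the range of small pools. Its log2 fold change was 2.11 (SE 0.70, limma nominal p = 0.00515, adjusted p = 0.915, exact permutation p = 0.00952). MRPL10 no longer passed without small replicate 1, 2 or 4 or spontaneous replicate 1, 2 or 4, nor in edgeR's quasi-likelihood test. In DESeq2 the member that passed was MRPL37. No member at all passed without small replicate 1 or 2 or spontaneous replicate 4, whereas 2 passed without small replicate 3 or spontaneous replicate 3.

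At an unadjusted p under 0.05 there were 7 members, where 4.51% of all transcripts had one, 6 of them higher in spontaneous pools. MRPL37 was at 175, 534, 248 and 227 CPM in spontaneous pools and ranged from 140 to 222 CPM in small pools (median 175). It was far higher in replicate 2 than in any small pool, 2 others lay just above the highest small pool, and replicate 1 fell among the small pools. MRPL48 was at 9.09 ± 5.67 CPM in spontaneous and 1.49 ± 1.31 CPM in small pools, and MRPL46, its neighbour in the central protuberance, at 8.15 ± 4.75 and 1.74 ± 2.68 CPM. MRPL46 had 5 CPM or more in 1 of 6 small, 1 of 6 large and 3 of 4 spontaneous pools. Both MRPL46 and MRPL48 were thus retained through classes where they were high, so their place in this count supports nothing about the group. The others with the higher mean in spontaneous pools were MRPS22 (45.9 ± 9.60 against 24.2 ± 12.6 CPM) and MRPL52 (99.4 ± 28.5 against 61.4 ± 11.6 CPM). MRPL30 had the lower mean in spontaneous pools (66.8 ± 17.1 against 106 ± 32.0 CPM).

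The comparison of large with spontaneous oocyte pools gave much the same picture over the members, with the spontaneous pools in common. Again 49 of 72 had the higher mean log2 level in spontaneous pools (68.1%, beside 50.9% of all transcripts), and the median log2 fold change was 0.25, beside 0.01 over all transcripts. By subunit the median was 0.06 over the large and 0.32 over the small subunit. In the large subunit 27 of 46 genes had the higher mean in spontaneous pools, and in the small subunit 22 of 26. None passed the nominal threshold in limma, where 0.943% of all transcripts did. None passed in edgeR (0.903% of all transcripts) and 1 in DESeq2 (1.8%), which was MRPS15. In limma 2 members passed without large replicate 1, 3 without spontaneous replicate 1 and 1 without spontaneous replicate 3. At an unadjusted p under 0.05 there were 5 members in limma, where 4.87% of all transcripts had one, and all 5 had the higher mean in spontaneous pools.

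The 5 were MRPL54, MRPS15, MRPL37, MRPL10 and MRPL4. MRPS15, a bacterial-type protein of the small subunit, was at 24.2, 63.9, 33.2 and 59.0 CPM in spontaneous pools and ranged from 13.1 to 27.8 CPM in large pools (median 20.6). Of the 4 spontaneous pools 3 were above every large pool. Its log2 fold change was 1.01 (SE 0.41, limma nominal p = 0.0211, adjusted p = 0.968, exact permutation p = 0.0143). MRPL54 was at 8.03, 24.96, 47.6 and 16.1 CPM in spontaneous pools and ranged from 0.761 to 19.8 CPM in large pools (median 5.84). MRPL4, of the peptide tunnel, was at 162 ± 40.4 CPM in spontaneous and 110 ± 52.8 CPM in large pools with overlap. MRPL10 was at 27.0 ± 13.3 CPM in spontaneous and 11.1 ± 9.92 CPM in large pools, and MRPL37 at 296 ± 161 and 186 ± 33.6 CPM.

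**Figure D3:**
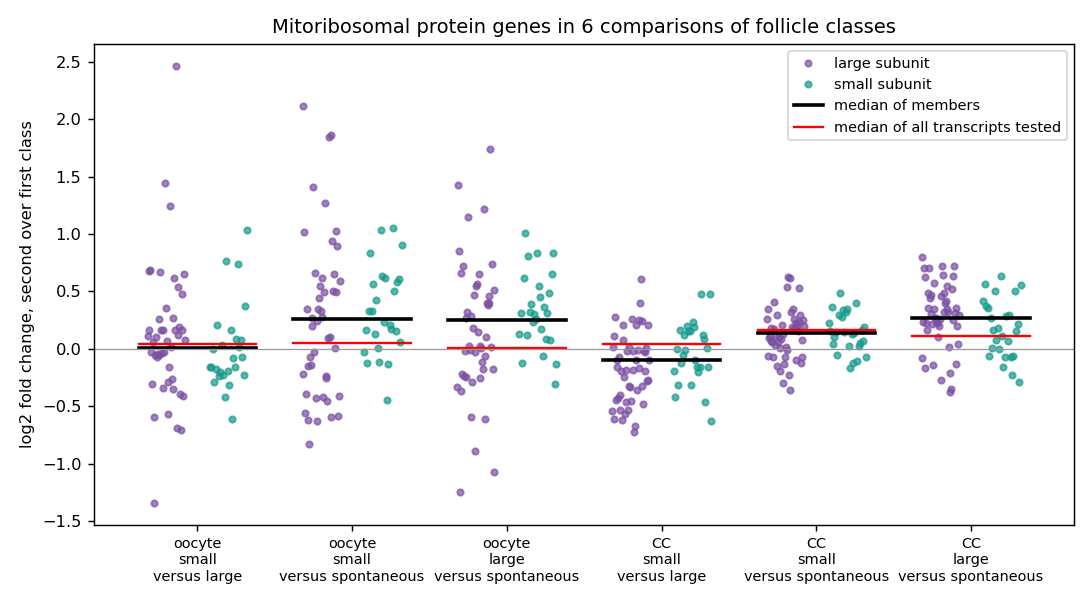
Log2 fold change of each retained mitoribosomal protein gene (second class over first, on log2(CPM + 1)) in the 6 comparisons, with large- and small-subunit genes apart. Black bars give the median over the members and red bars that over all transcripts tested; in both oocyte comparisons with spontaneous pools the black bar (0.26 and 0.25) stands above the red bar (0.05 and 0.01), and from small to large CC it stands below (-0.10 against 0.05).

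In CC the summed level of the 79 genes did not separate the classes. It ranged from 1824 to 2315 CPM in small (median 2118), from 1595 to 2279 CPM in large (median 2027) and was 1979, 2421, 2347, 2493 and 2375 CPM in spontaneous pools. Of 5 spontaneous pools 4 were above every small and large pool, and replicate 1 fell among them. Without the mitochondrially encoded genes the order changed, the class means being 2887 ± 275 CPM for small, 2518 ± 171 for large and 2803 ± 245 for spontaneous. Those genes took 12.6 to 44.0% of reads in small, 14.4 to 28.0% in large and 14.3 to 22.1% in spontaneous CC pools.

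More members had the lower mean in large than in small CC pools. Only 26 of 77 had the higher mean log2 level in large pools (33.8%, beside 56.0% of all transcripts), and the median log2 fold change was -0.10, beside 0.05 over all 9712 transcripts. With median-of-ratios scaling these medians were -0.15 and -0.01, and without the mitochondrially encoded genes -0.21 and -0.06. In the large subunit 14 of 50 genes had the higher mean in large pools (median -0.17) and in the small subunit 12 of 27 (median -0.01). None passed the nominal threshold in limma, where 0.813% of all transcripts did. In edgeR 1 member passed (0.649% of all transcripts), MRPL49, and in DESeq2 2 did (1.15%), MRPL49 and MRPL19. Without large replicate 3 limma passed 1 member.

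At an unadjusted p under 0.05 there were 4 members in limma, where 4% of all transcripts had one. MRPL49, a mitochondria-specific large-subunit protein, ranged from 26.2 to 41.4 CPM in small CC pools (median 34.7) and from 33.9 to 82.9 CPM in large CC pools (median 49.6), against the direction of most members. Its log2 fold change was 0.61 (SE 0.23, limma nominal p = 0.0172, adjusted p = 0.999, exact permutation p = 0.0130). The other 3 had the lower mean in large pools. MRPL52 was at 32.0 ± 7.56 CPM in large and 44.1 ± 5.12 in small pools, MRPL19 at 23.9 ± 4.74 and 35.9 ± 11.7 CPM, and MRPL21 at 12.996 ± 4.39 and 20.0 ± 4.44 CPM.

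Over the members the difference between small and spontaneous CC pools was close to that over all transcripts. With CPM as deposited 59 of 77 had the higher mean log2 level in spontaneous pools (76.6%, beside 71.9% of all transcripts), and the median log2 fold change of 0.14 was below the 0.16 over all transcripts. With median-of-ratios scaling 36 of 77 had the higher mean in spontaneous pools and both medians were near 0 (-0.01 over the members, 0.01 over all). The shift of 0.16 over all transcripts goes with the smaller share of mitochondrially encoded reads in spontaneous pools, and without these genes the medians were -0.03 and -0.0045. One member passed the nominal threshold, where 2.38% of all transcripts did. It was MRPL39, a mitochondria-specific large-subunit protein related to threonyl-tRNA synthetase.

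MRPL39 ranged from 39.2 to 48.6 CPM in small CC pools (median 42.4) and was at 60.8, 57.0, 55.9, 79.9 and 65.04 CPM in spontaneous CC pools, so that the groups did not overlap. Its log2 fold change was 0.54 (SE 0.17, limma nominal p = 0.00634, adjusted p = 0.390, exact permutation p = 0.00216, the smallest the design allows). It no longer passed with median-of-ratios scaling (0.38), without the mitochondrially encoded genes (0.37), in edgeR (0.39) or in DESeq2 (0.39), with all 3 classes in 1 fit (0.54), or without small replicate 1 or 4 or spontaneous replicate 4 or 5. At an unadjusted p under 0.05 MRPL42 was the only other member (31.3 ± 4.18 CPM in spontaneous, 20.5 ± 4.62 in small pools), where 8.55% of all transcripts had such a p.

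Large and spontaneous CC pools gave the most calls of members in limma. Of 77 members 4 passed the nominal threshold , where 1.66% of all transcripts did, and all 4 had the higher mean in spontaneous pools. Of all 77, 61 had the higher mean log2 level there (79.2%, beside 65.6% of all transcripts), and the median log2 fold change was 0.27, beside 0.11 over all transcripts. Relative to all transcripts the members stayed above under each scaling, with medians of 0.17 and 0.01 for median-of-ratios scaling and 0.21 and 0.05 without the mitochondrially encoded genes. By subunit 42 of 50 large-subunit genes (median 0.31) and 19 of 27 small-subunit genes (median 0.17) had the higher mean in spontaneous pools.

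MRPL39 was among the 4, at 20.3 to 50.6 CPM in large CC pools (median 41.3) and 55.9 CPM or more in spontaneous CC pools, again without overlap. Its log2 fold change was 0.72 (SE 0.22, limma nominal p = 0.00474, adjusted p = 0.567, exact permutation p = 0.00433). MRPL52, of the central protuberance, ranged from 17.8 to 38.1 CPM in large CC pools (median 34.7) and was at 44.3, 45.4, 51.6, 49.0 and 55.8 CPM in spontaneous CC pools, also without overlap. The log2 fold change of MRPL52 was 0.64 (SE 0.21, limma nominal p = 0.00711, adjusted p = 0.567, exact permutation p = 0.00216). Small CC pools, at 37.5 to 49.2 CPM, overlapped both other classes for MRPL52, with 5 of 6 above every large pool. For MRPL39 they overlapped the large pools alone.

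MRPL19, a bacterial-type protein at the interface of the subunits, ranged from 17.8 to 32.2 CPM in large CC pools (median 23.4) and was at 28.8, 48.8, 48.3, 34.7 and 37.7 CPM in spontaneous CC pools. Only spontaneous replicate 1 lay within the range of large pools. The difference was 0.70 on the log2 scale (SE 0.21, limma nominal p = 0.00426, adjusted p = 0.567, exact permutation p = 0.00649). MRPS23, a mitochondria-specific small-subunit protein, ranged from 19.6 to 37.5 CPM in large CC pools (median 27.3) and was at 33.9, 41.9, 46.5, 46.6 and 47.0 CPM in spontaneous CC pools, with the same pool overlapping. For MRPS23 the log2 fold change was 0.64 (SE 0.22, limma nominal p = 0.00961, adjusted p = 0.567, exact permutation p = 0.0130).

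With an unadjusted p under 0.05 there were 11 of 77 members, where 7.07% of all transcripts had one, and all 11 had the higher mean in spontaneous CC pools. Besides the 4 they were MRPL1, MRPL12, MRPL14, MRPL18, MRPL51, MRPL54 and MRPS10. MRPL12, the stalk protein that recruits translation factors, was at 15.2 ± 4.37 CPM in spontaneous and 9.35 ± 3.62 CPM in large pools. MRPS10 was at 91.3 ± 12.5 and 69.0 ± 16.3 CPM, and MRPL18 at 53.9 ± 11.5 and 38.5 ± 9.48 CPM.

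The number of members that passed depended on the processing. It was 1 with median-of-ratios scaling and in edgeR, and 2 without the mitochondrially encoded genes and in DESeq2. Of all 9712 transcripts 127 passed in edgeR and 199 in DESeq2, so the 1 and 2 of 77 members lay near the share over all transcripts there. Leaving out 1 pool gave 1 to 5, with 1 after spontaneous replicate 2, 3, 4 or 5 was left out and 2 after large replicate 3 or 6 was left out. Summed white blood cell markers were at 43.1 to 231 CPM in large (median 71.8), 59.7 to 356 in spontaneous (median 142) and 47.5 to 262 CPM in small CC pools (median 130), with 8 of 10 markers retained. Cumulus and granulosa cell markers summed to 5971 to 11987 CPM in large (median 7309) and 8135 to 14161 CPM in spontaneous CC pools (median 9139). Theca cell markers summed to 599 to 912 CPM in large (median 742) and 602 to 1350 CPM in spontaneous CC pools (median 764). Reads on genes numbered 2809623 to 5123650 in large and 4535826 to 5510272 in spontaneous CC pools. The part of these markers and of depth in the differences was not tested.

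**Figure D4:**
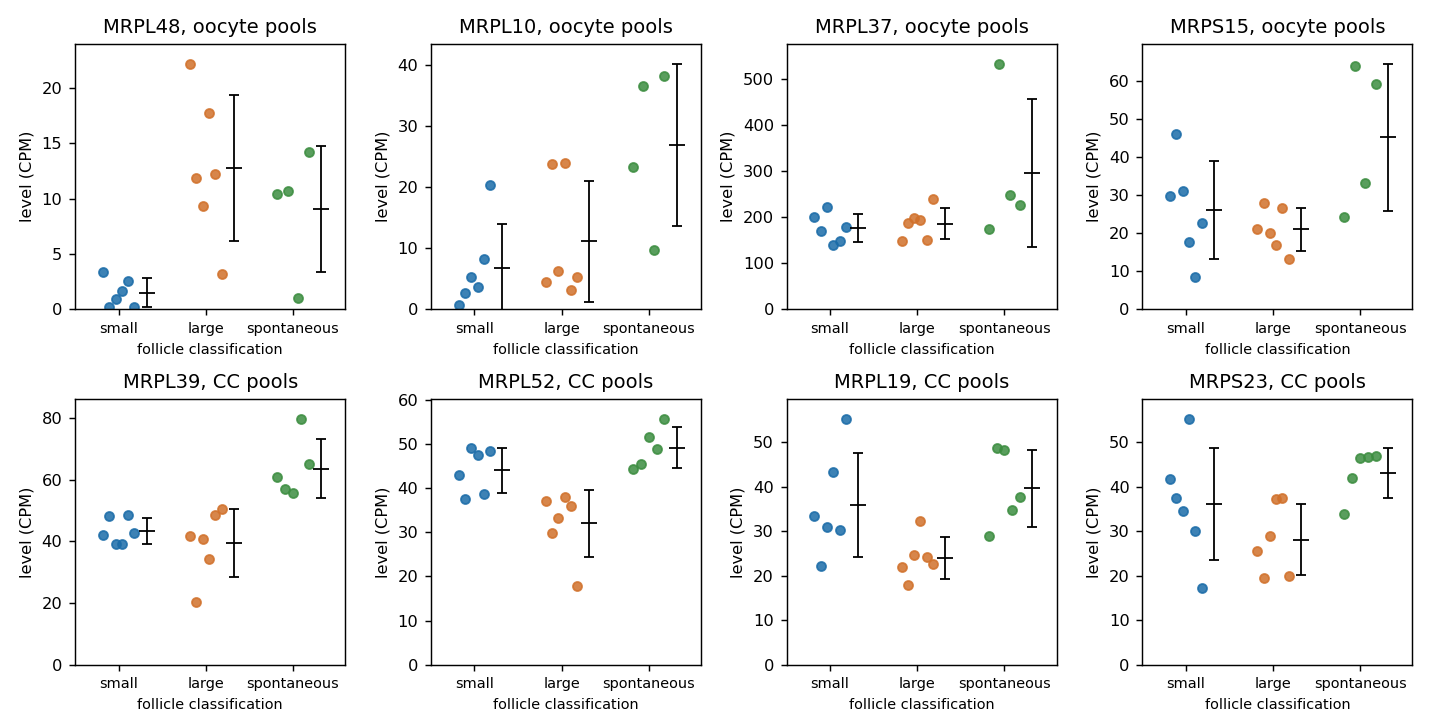
CPM by pool of 4 members in oocyte pools (MRPL48, MRPL10, MRPL37, MRPS15) and of 4 in CC pools (MRPL39, MRPL52, MRPL19, MRPS23), with the follicle class on the x axis, a point for each pool and bars for the mean and SD. MRPL48 is low in all 6 small oocyte pools (up to 3.41 CPM), and MRPL39 is higher in all 5 spontaneous CC pools (55.9 CPM or more) than in any other CC pool.

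Other genes on which mitochondrial translation depends were described from 7 lists, 78 genes retained in oocytes and 82 in CC. Of the 5 mitoribosomal proteins named otherwise (DAP3, PTCD3, AURKAIP1, CHCHD1 and GADD45GIP1) 1 passed in 1 comparison, where 0.655% of all transcripts did. Over the 7 lists 1 of 78 retained genes passed in that comparison, so this call supports nothing about a list. GADD45GIP1, a large-subunit protein that also regulates the cell cycle, was lower in large than in small oocyte pools (4.74 ± 2.88 against 22.5 ± 14.9 CPM, n = 6 each). The difference was -1.90 on the log2 scale (SE 0.55, limma nominal p = 0.00177, adjusted p = 0.997, exact permutation p = 0.00433), the opposite direction to MRPL48.

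Of 12 translation factors retained in CC 1 passed, from small to spontaneous pools, where 2.38% of all transcripts did. TSFM, the elongation factor that recycles TUFM, was at 12.2 ± 2.11 CPM in spontaneous (n = 5) and 5.25 ± 1.40 CPM in small CC pools (n = 6) without overlap, a log2 fold change of 1.09 (SE 0.29, limma nominal p = 0.00152, adjusted p = 0.295, exact permutation p = 0.00216). Large CC pools were at 7.19 ± 1.60 CPM, also below every spontaneous pool, but this comparison missed the threshold (limma nominal p = 0.0204, exact permutation p = 0.00216). No translation factor passed in oocytes, where 11 were retained and 0.655 to 0.943% of all transcripts passed. Of 13 genes for mitochondrial transcription and mRNA handling 1 passed, from large to spontaneous CC pools, where 1.66% of all transcripts did. TFB2M, the factor that melts the mitochondrial promoter, was at 24.9 ± 2.43 CPM in spontaneous and 14.2 ± 6.46 CPM in large CC pools, a log2 fold change of 0.86 (SE 0.28, limma nominal p = 0.00647, adjusted p = 0.567, exact permutation p = 0.0130). Over the 7 lists 1 of 82 retained genes passed in each of these CC comparisons, so these calls support nothing about a list.

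None passed among the genes for mitoribosome assembly and rRNA modification (19 retained in oocytes, 21 in CC), the mitochondrial aminoacyl-tRNA synthetases (11 and 12) or the regulators of nuclear genes for mitochondria (6 and 6). Between 0.655 and 2.38% of all transcripts passed in the 6 comparisons. The smallest limma nominal p among the assembly genes belonged to MTERF4 (oocyte small versus spontaneous, p = 0.0393, exact permutation p = 0.133), and among the regulators to PPARGC1B, a transcriptional coactivator (oocyte small versus large, p = 0.0362, exact permutation p = 0.0801). Over the assembly genes the median log2 fold change from small to spontaneous oocyte pools was 0.41, and from large to spontaneous 0.34, beside 0.05 and 0.01 over all transcripts. The other lists of nuclear genes had lower medians in both comparisons. From large to spontaneous pools, however, mitoribosomal proteins named otherwise, translation factors and aminoacyl-tRNA synthetases also stood above all transcripts. The medians of the other lists were -0.24 and 0.13 for the mitoribosomal proteins named otherwise and -0.02 and 0.18 for translation factors. They were 0.05 and 0.15 for aminoacyl-tRNA synthetases, 0.05 and -0.04 for transcription and mRNA handling, and 0.11 and 0.03 for the regulators.

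All 13 mitochondrially encoded protein genes had the lower mean log2 level in spontaneous than in small and in large oocyte pools. From small to spontaneous 9 passed, where 0.774% of all transcripts did, with a median log2 fold change of -0.94, and from large to spontaneous 5 passed, where 0.943% did, with a median of -0.53. COX1, the catalytic subunit of cytochrome c oxidase, was at 1660 ± 193 CPM in spontaneous (n = 4) and 3818 ± 2132 CPM in small oocyte pools (n = 6) without overlap (adjusted p = 0.140 in limma, exact permutation p = 0.0286). COX1 had the smallest exact permutation p of the 9, which ranged up to 0.124 and was above 0.05 for 6 of them, and the pools of 6 overlapped. From large to spontaneous the exact permutation p ranged from 0.0381 to 0.143 and was above 0.05 for 4 of the 5, with overlap for 3. In the same comparisons the medians over the mitoribosomal proteins were 0.26 and 0.25. In CC none of the 13 passed in any comparison, where 0.813 to 2.38% of all transcripts did. The 13 had the lower mean in spontaneous than in small and large CC pools (medians -0.53 and -0.24).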

How the data were processed

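The authors trimmed reads, mapped them with Hisat2 to UMD3.1, a bovine assembly, and counted those on Ensembl genes (featureCounts, per the labels). The deposited unit is CPM, with oocyte and CC pools in separate tables, and every value was a whole number of reads to within 0.01 of a read. All columns were matched to samples (0 unmatched).

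Members and lists were chosen with earlier results of these data known. Symbols blank in the CC table (8 members) came from the oocyte table by Ensembl identifier. Genes named are members that passed, members at p up to 0.05 whose pools did not overlap, the 3 with the largest difference between cell types in each direction, members retained in neither table, and listed genes that passed or, in lists where none did, had the smallest p; any other was chosen after its values were seen. The result of 1 listed gene is not reported here. Transcript lengths were not used here, so counts and shares of members by level are in CPM without correction for length.

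Tests were two-sided: limma 3.58.1 with a mean-variance trend, and an exact permutation test of mean CPM. The nominal threshold and the condition on oocyte library 3 follow the study's methods, except that the study required the threshold in both edgeR and DESeq2 and here limma alone decides, because the deposited unit is CPM. That library was taken to be oocyte small replicate 3, which is an assumed match. Alternatives were a pseudocount of 0.1, no filter, median-of-ratios scaling, CPM without mitochondrially encoded genes, 3 classes fitted jointly, a block for replicate number, edgeR 4.0.16 and DESeq2 1.42.0 on recovered reads, and each pool left out. Median-of-ratios sums, sums without MRPL37, and medians by edgeR, DESeq2, the joint fit and the block were added after seeing the data. R 4.3.3 and Python 3.11.15 were used. Pools of a class differed by far more than sampling noise (chi-square per degree of freedom of at least 60.9 between oocyte and 13.4 between CC pools), and p-values measure the spread between these pools. The fits were run on simulated counts with large known changes and the same spread setting for every gene. That run checks the code and does not show how the tests perform at the smaller changes or the spread of these pools.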

Additional observations from a re-analysis of the deposited data

Results flagged for a closer look

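The summed level of the 79 genes was 4222 CPM in spontaneous oocyte replicate 3, far from the other 3 pools of its class (3795 to 3844 CPM). Without it the class mean was 3820 CPM and its lowest pool still lay above all small and large oocyte pools. In CC the sum was 1979 CPM in spontaneous replicate 1, far below the other 4 pools (2347 to 2493 CPM), and without it the class mean was 2409 CPM. In all 24 groups were examined, 6 for the sum and 18 for the named members, and chance alone gives such a pool in about 1 of 20 groups. No member moved in opposite directions in oocytes and CC without overlap of the classes in both.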

How the results depend on the processing

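In oocytes the number of members that passed from small to spontaneous pools fell from 1 to 0 without the filter and in edgeR, and from large to spontaneous rose from 0 to 1 in DESeq2. In CC it rose from 0 to 1 from small to large pools without the mitochondrially encoded genes and in edgeR, and to 2 in DESeq2. From small to spontaneous CC it was 0, not 1, with median-of-ratios scaling, without the mitochondrially encoded genes, in the joint fit, under the replicate block, in edgeR and in DESeq2, and the median log2 fold change over the members turned to -0.013, -0.030, -0.020 and -0.026 with median-of-ratios scaling, without those genes, in edgeR and in DESeq2. From large to spontaneous CC 1 member passed with median-of-ratios scaling, under the replicate block and in edgeR, and 2 without those genes and in DESeq2, in place of 4, with a median of 0.11 in edgeR and 0.11 in DESeq2. The replicate block changed no other count by this much; the replicate numbers did not pair the pools, since correlations of 30 same-numbered pairs ran from -0.19 to 0.22 and the best match had the same number in 5. Leaving out 1 pool gave 1 to 2 members from small to large, 0 to 2 from small to spontaneous and 0 to 3 from large to spontaneous oocytes, and 0 to 1, 0 to 2 and 1 to 5 in CC. Summed levels moved beyond their SD without MRPL37 (3273 CPM in small and 3625 in spontaneous oocyte pools), without the mitochondrially encoded genes (2887, 2518 and 2803 CPM in small, large and spontaneous CC pools) and with median-of-ratios scaling (2067 CPM in spontaneous CC pools). For the named members 81 alternatives kept the call and 52 lost it, with 0 reversed. MRPL48 kept its call in all those run. Except where a value shows it, the cause was not tested.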
